A study of Mus musculus with 10 samples.

Results

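The 37 genes of the mouse mitochondrial chromosome were compared between medial prefrontal cortex libraries with and without overexpression of miR-130a-3p. They were chosen as the entries whose gene name begins with mt-, 37 of 78317 genes listed, and comprise 13 protein-coding genes, 2 ribosomal RNA genes and 22 transfer RNA genes. The miR-130a group was 5 libraries, numbered 13, 14, 15, 17 and 18, from mice that received an adeno-associated virus (AAV) carrying miR-130a-3p. The control group was 5 libraries, numbered 3, 4, 5, 7 and 9, from mice that received a control AAV. The study concerns miR-130a-3p in depression and its link to microglia. Both groups were wild type, and the tissue was a punch of 1 mm in diameter, so all cell types of the cortex contribute RNA. The serotype and promoter of the virus and the age of the mice are not given in the sources used here. Libraries were made from poly(A)-selected RNA, and values are TPM, relative transcript abundances, which divide by transcript length and by the library total and keep no read depth.

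The mitochondrial chromosome encodes a small core of the respiratory chain, which passes electrons to oxygen and stores the energy as a proton gradient that ATP synthase uses. Its proteins are subunits of complexes I, III, IV and V, while every subunit of complex II and all proteins of mitochondrial transcription and translation come from the nucleus. Both strands are transcribed into long precursors that are cut at the transfer RNAs, and most of the released mRNAs receive poly(A) tails. Neurons depend heavily on this pathway for the ion pumping that follows synaptic activity. Parts of the mitochondrial chromosome have also been inserted into nuclear chromosomes, where they persist as pseudogenes of nearly the same sequence.

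That resemblance bears on these values, so the sequences come first. In the GENCODE M21 transcripts of build GRCm38, 11 annotated nuclear pseudogenes matched a mitochondrial gene with at least 95% identity over at least 100 bases, and they matched 9 different genes. A group of 7 lay side by side on the minus strand at chr1:24611535-24616197 (GRCm38), a stretch of 4663 bases that follows the mitochondrial chromosome from the end of mt-Co1 to mt-Nd4. Of these 7, 5 had no mismatch to their mitochondrial gene over the aligned bases. Gm28661 matched 681 of the 684 bases of mt-Co2, Gm28437 matched 783 of the 784 bases of mt-Co3, and Atp6-ps matched 678 of the 681 bases of mt-Atp6. The other 2 carried 1 mismatch each. The windows below are 30 bases long, written 5′ to 3′ with the differing base in capitals, to show how little separates a gene from its copy. The change is T3C for mt-Nd3 and A1066T for mt-Co1, with the mitochondrial base first, counted from 1 at the 5′ end of the mitochondrial gene. The microRNA given to the mice, from the RefSeq table for GRCm38.p6 at chr2:84741116-84741137 on the minus strand, is shown last with its seed, bases 2 to 8, in capitals.
mt-Nd3: atTaacctgtacactgttatcttcattaat
Gm28438: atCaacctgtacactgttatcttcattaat
mt-Co1: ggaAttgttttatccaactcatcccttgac
Gm29216: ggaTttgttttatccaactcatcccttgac
mmu-miR-130a-3p: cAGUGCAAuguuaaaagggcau

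The mean share of TPM listed under mitochondrial genes was higher in the miR-130a group, but the groups overlapped. The 37 genes together held 16.02, 19.9, 19.2, 16.2 and 19.8% of TPM in the miR-130a libraries and 16.04, 13.04, 13.6, 14.4 and 16.4% in the controls, and miR-130a libraries 13 and 17 lay inside the control range. By biotype, the protein-coding genes held 16.8% ± 2.06 in miR-130a and 13.6% ± 1.48 in control libraries, again with overlap (SD, n = 5 each). The ribosomal RNAs held 1.49% ± 0.106 in miR-130a and 1.09% ± 0.0336 in control libraries, and every miR-130a library was above every control. With the near-identical nuclear copies added, the total was 24.3 to 29.6% in miR-130a and 21.0 to 24.7% in control libraries, with overlap. No test is given for these sums, since the genes were chosen with earlier results of the same data known. A single gene, mt-Atp8, supplied much of the spread. Without it the mitochondrial genes held 12.2 to 14.6% in miR-130a and 9.61 to 11.2% in control libraries, and the groups no longer overlapped. Leaving mt-Atp8 out was chosen after its values were seen, so this separation adds no support to the total, which overlapped. In bulk tissue a change in the number of cells rich in mitochondria and a change in mitochondrial RNA per cell cannot be told apart.

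**Figure D1:**
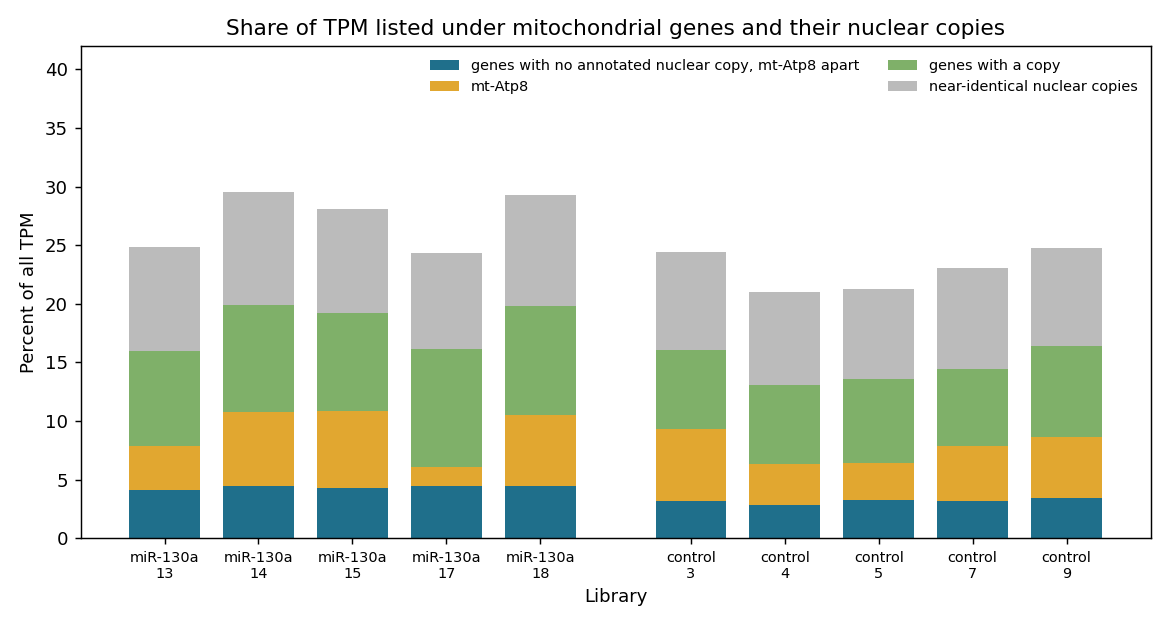
Stacked bars give, for each library, the percent of all TPM listed under mitochondrial genes and their near-identical nuclear copies, with the 5 miR-130a libraries on the left and the 5 controls on the right. The bottom part, 5 genes without an annotated copy, spans 4.11 to 4.503% in miR-130a and 2.88 to 3.42% in control libraries, while mt-Atp8 alone spans 1.59 to 6.58% in miR-130a and 3.18 to 6.16% in control libraries.

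All 22 transfer RNA genes were listed at 0 in every library, so nothing can be said of their level. They are 59 to 75 bases long. Of 747 other listed genes without an annotated transcript longer than 75 bases, 0 had a value above 0 in any library, against 36 of 3360 genes above that length and up to 200 bases. The shortest mitochondrial gene with a value, mt-Atp8, has 204 bases. The transfer RNAs were therefore left out of the tests, and the 15 genes that remained, 13 protein-coding and 2 ribosomal, all passed the filter of a mean of at least 1 TPM. Most of the 15 are highly abundant in these libraries, mt-Co2 and mt-Co3 ranking lower: of the 20 genes of highest mean TPM, 13 were mitochondrial genes and 5 were their nuclear copies.

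Of the 15 genes, 10 rose in the miR-130a group and 0 fell at an adjusted p of 0.05, in a limma fit on log2(TPM + 1) across all 15680 genes tested. Across all tested genes 2.19% were called higher. The median log2 fold change of the 15 was 0.49, beside −0.09 over all genes, and 14 of the 15 had a positive fold change, mt-Atp8 being the exception, whose sign turned positive when libraries were rescaled to the sum of the other genes and with median-ratio scaling. At an unadjusted limma p under 0.05, 11 of the 15 were higher and 0 lower, beside 6.36% higher and 22% lower over all tested genes. In 7 of the 15 every miR-130a library exceeded every control, which occurred in 1.85% of all tested genes, and in 0 of the 15 was the order the opposite, which occurred in 9.46%. The 10 calls comprised both ribosomal RNAs, 6 of 7 complex I genes, mt-Cytb of complex III, and 1 of 3 cytochrome c oxidase genes. Neither ATP synthase gene passed. The count of 10 moved when single libraries were left out. It was 4 without control library 7, 5 without control library 3, 5 without miR-130a library 14 and 6 without miR-130a library 18. All genes called higher numbered 146, 200, 162 and 313 in these fits, beside 343 with all libraries, so calls were lost in general. The calls of mt-Rnr1, mt-Rnr2, mt-Nd4l and mt-Nd6 were kept whichever library was left out. After poly(A) selection such values also depend on how well each RNA was captured, which was not tested. Under quantile normalization, which gives every library the same values by rank, 2 of the 10 calls remained, mt-Nd6 and mt-Co2. Most mitochondrial genes hold top ranks, so a rise they share is largely removed there by construction. With no filter on low values 0 calls remained, beside 178 of 36601 genes called higher. Of the 15, 8 then still had an unadjusted limma p under 0.05.

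**Figure D2:**
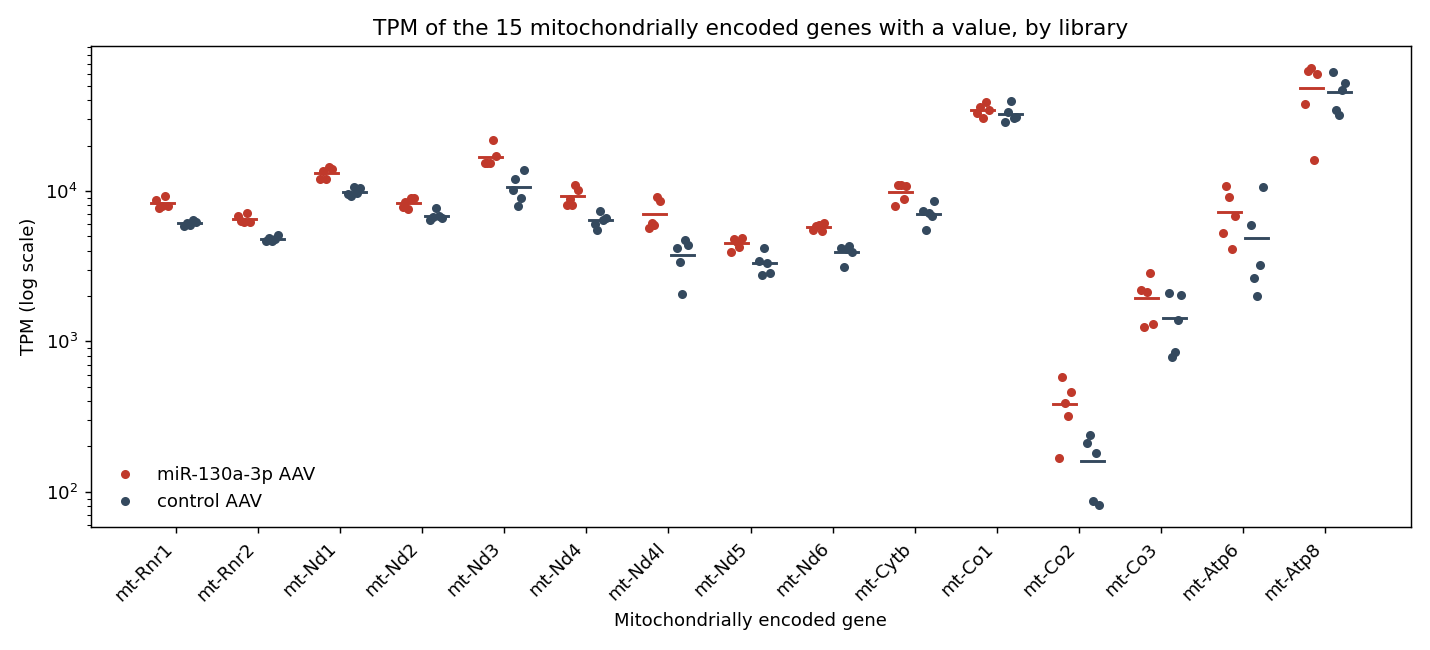
Each point is 1 library's TPM on a log axis, with the miR-130a libraries left of the controls for each gene and a line at the group mean. The ribosomal genes and mt-Nd1, mt-Nd3, mt-Nd4, mt-Nd4l and mt-Nd6 separate without overlap, while mt-Atp8 ranges from 15934 to 65798 TPM within the miR-130a group.

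The ribosomal RNAs form the mitochondrial ribosome together with imported proteins. The small ribosomal RNA mt-Rnr1 (ENSMUSG00000064337) was at 8758, 7748, 7881, 9191 and 7981 TPM in the miR-130a libraries and 5881, 6115, 5971, 6419 and 6197 TPM in the controls. The lowest miR-130a library was above the highest control (log2 fold change 0.44 ± 0.10 SE, adjusted p = 0.0138 in limma). The large ribosomal RNA mt-Rnr2 (ENSMUSG00000064339) was at 6822, 6270, 6235, 7180 and 6233 TPM in the miR-130a libraries and 4626, 4875, 4669, 4804 and 5051 TPM in the controls. It rose by nearly the same amount (log2 fold change 0.44 ± 0.09 SE, adjusted p = 0.0104 in limma). Their quotient, mt-Rnr1 over mt-Rnr2, was 1.24 to 1.28 in miR-130a and 1.23 to 1.34 in control libraries, and these ranges overlapped.

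Complex I, the entry point for electrons from NADH, has 7 mitochondrial subunits, all in its membrane arm. The subunit mt-Nd6 (ENSMUSG00000064368), the only protein-coding gene transcribed from the other strand than the rest, was at 5483, 5822, 5939, 5422 and 6115 TPM in the miR-130a libraries and 4163, 3124, 4121, 4279 and 3935 TPM in the controls. Its groups did not overlap, and it had the lowest p of the mitochondrial genes (log2 fold change 0.56 ± 0.11 SE, adjusted p = 0.0079 in limma). Its end overlaps that of mt-Nd5 on the opposite strand by 14 bases. For mt-Nd1 (ENSMUSG00000064341) the values were 12050, 13572, 12084, 14326 and 13941 TPM in the miR-130a libraries and 9579, 9201, 10540, 9653 and 10467 TPM in the controls, without overlap (log2 fold change 0.41 ± 0.11 SE, adjusted p = 0.0275 in limma). Leaving out any of 5 libraries in turn ended the call of mt-Nd1, the adjusted p of limma then reaching as much as 0.0886. The subunit mt-Nd4 (ENSMUSG00000064363) stood at 8081, 8866, 8117, 10940 and 10121 TPM in the miR-130a libraries and 6061, 5521, 7334, 6432 and 6599 TPM in the controls, also without overlap (log2 fold change 0.53 ± 0.13 SE, adjusted p = 0.0198 in limma). That call was lost without miR-130a library 14, control library 3 or control library 7, with limma's adjusted p at most 0.0545.

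Its neighbour mt-Nd4l (ENSMUSG00000065947), whose reading frame overlaps mt-Nd4 by 7 bases, was at 5678, 6119, 5934, 9041 and 8522 TPM in the miR-130a libraries and 4149, 3360, 2067, 4682 and 4394 TPM in the controls. Its lowest miR-130a library lay above its highest control, and its mean was 1.89 times the control mean (log2 fold change 0.95 ± 0.23 SE, adjusted p = 0.019 in limma). The subunit mt-Nd3 (ENSMUSG00000064360) was at 15254, 15249, 15286, 21632 and 17152 TPM in the miR-130a libraries and 10149, 12043, 7876, 8916 and 13717 TPM in the controls, without overlap (log2 fold change 0.70 ± 0.17 SE, adjusted p = 0.022 in limma). The call of mt-Nd3 was lost without control library 3 or control library 7, with limma's adjusted p at most 0.0661. For both genes a near-identical copy was listed with values of like size, given further on. The longest of the set, mt-Nd5 (ENSMUSG00000064367), had 3951, 4759, 4551, 4220 and 4871 TPM in the miR-130a libraries and 3394, 2776, 4177, 3303 and 2835 TPM in the controls. It passed narrowly and with overlap, through control library 5 (log2 fold change 0.45 ± 0.13 SE, adjusted p = 0.0387 in limma), and the call was lost with 8 of the 10 libraries left out in turn. The remaining subunit, mt-Nd2 (ENSMUSG00000064345), was at 7821, 8375, 7551, 8928 and 8956 TPM in the miR-130a libraries and 6393, 6714, 7697, 6756 and 6610 TPM in the controls. It did not pass (log2 fold change 0.28 ± 0.11 SE, adjusted p = 0.0985 in limma). Its highest control, library 5, overlapped the lowest miR-130a library. When each library was rescaled to the genes that are not mitochondrially encoded, mt-Nd2 passed as well (log2 fold change 0.35, limma adjusted p = 0.0448). That scaling raises mitochondrial fold changes by construction where the mitochondrial share is higher.

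In complex III, which hands electrons to cytochrome c, the only mitochondrial subunit is cytochrome b. Its gene mt-Cytb (ENSMUSG00000064370) was at 7938, 10911, 10982, 8859 and 10757 TPM in the miR-130a libraries and 7367, 5536, 7094, 6835 and 8505 TPM in the controls. The ranges overlapped through control library 9, and the call was narrow (log2 fold change 0.49 ± 0.15 SE, adjusted p = 0.0475 in limma) and lost with 8 of the 10 libraries left out in turn.

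Complex IV, cytochrome c oxidase, reduces oxygen to water, and its core of 3 subunits is mitochondrial. The catalytic subunit mt-Co1 (ENSMUSG00000064351), second of all genes by mean TPM, was at 32794, 35870, 30605, 38921 and 34419 TPM in the miR-130a libraries and 28807, 33206, 39822, 30394 and 31092 TPM in the controls. The groups overlapped and it did not pass (log2 fold change 0.08 ± 0.14 SE, adjusted p = 0.742 in limma). The highest value of all 10 libraries was that of control library 5. The subunit mt-Co2 (ENSMUSG00000064354), which carries the first electron acceptor of the complex, was listed at 169, 579, 390.2, 319 and 459 TPM in the miR-130a libraries and 212, 237, 86.5, 181 and 81.2 TPM in the controls. Every one of these values is a small fraction of mt-Co1. It passed with the largest fold change of the mitochondrial genes and with overlap (log2 fold change 1.28 ± 0.37 SE, adjusted p = 0.0416 in limma). The call was lost with 7 of the 10 libraries left out in turn. The third subunit, mt-Co3 (ENSMUSG00000064358), was at 2182, 1239, 2115, 2866 and 1303 TPM in the miR-130a libraries and 2080, 784, 852, 1376 and 2039 TPM in the controls. The groups overlapped and it did not pass (log2 fold change 0.49 ± 0.32 SE, adjusted p = 0.355 in limma).

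In ATP synthase, complex V, mitochondrial genes encode the subunit that forms the proton path and a small membrane subunit. Their genes, mt-Atp6 and mt-Atp8, overlap by 43 bases and share an mRNA. The gene mt-Atp8 (ENSMUSG00000064356), first of all genes by mean TPM, was at 37929, 63115, 65798, 15934 and 60304 TPM in the miR-130a libraries and 61622, 34312, 31761, 47105 and 52048 TPM in the controls. Values within either group spread more than the group means differed (log2 fold change -0.02 ± 0.37 SE, adjusted p = 0.976 in limma), and miR-130a library 17 was the lowest of all 10. The gene mt-Atp6 (ENSMUSG00000064357) was at 5284, 10701, 9055, 4077 and 6824 TPM in the miR-130a libraries and 5919, 2644, 1987, 3225 and 10689 TPM in the controls. It did not pass (log2 fold change 0.75 ± 0.43 SE, adjusted p = 0.282 in limma), and control library 9 was nearly as high as the highest miR-130a library. With that control left out the fold change reached 1.10 and limma's adjusted p 0.0451.

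For several genes of the copied stretch the nuclear copy was listed with as many TPM as the gene, or more. Gm28661, the copy of mt-Co2, was listed at 25332, 33064, 30333, 26133 and 29802 TPM in the miR-130a libraries and 23219, 18379, 19605, 21226 and 28486 TPM in the controls, so that mt-Co2 itself held only 0.284% to 1.72% of the pair in any library. Gm28437, the copy of mt-Co3, averaged 27034 ± 1834 TPM in miR-130a and 24655 ± 1861 TPM in control libraries, and mt-Co3 held 2.95% to 9.83% of that pair. Gm28438 averaged 12154 ± 2246 TPM in miR-130a and 13597 ± 2712 TPM in control libraries, Gm10222, the copy of mt-Nd4l, 9716 ± 1613 TPM in miR-130a and 7769 ± 1624 TPM in control libraries, and Atp6-ps 11780 ± 4868 TPM in miR-130a and 11432 ± 1691 TPM in control libraries (SD, n = 5 each). Together with Gm29216 these were the 6 copies tested, of which 0 passed in limma in either direction, and the unadjusted p of Gm28661 and of Gm29216 was 0.0241 and 0.0257, the others being above 0.05. Gm29216, which aligns with 483 of the 1545 bases of mt-Co1, was at 123, 40.5, 82.9, 294 and 1130 TPM in the miR-130a libraries and 2820, 2717, 58.9, 3124 and 2460 TPM in the controls, where control library 5 and miR-130a library 18 stood apart from the rest of their groups (log2 fold change -2.92 ± 1.14 SE, adjusted p = 0.116 in limma). The other 5 copies were below a mean of 1 TPM. One of them, Gm28439, has 876 bases without a mismatch to mt-Nd4 and was listed at 0 throughout. Where sequences are identical, the division of reads between gene and copy is uncertain, so each gene was also summed with its copies.

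**Figure D3:**
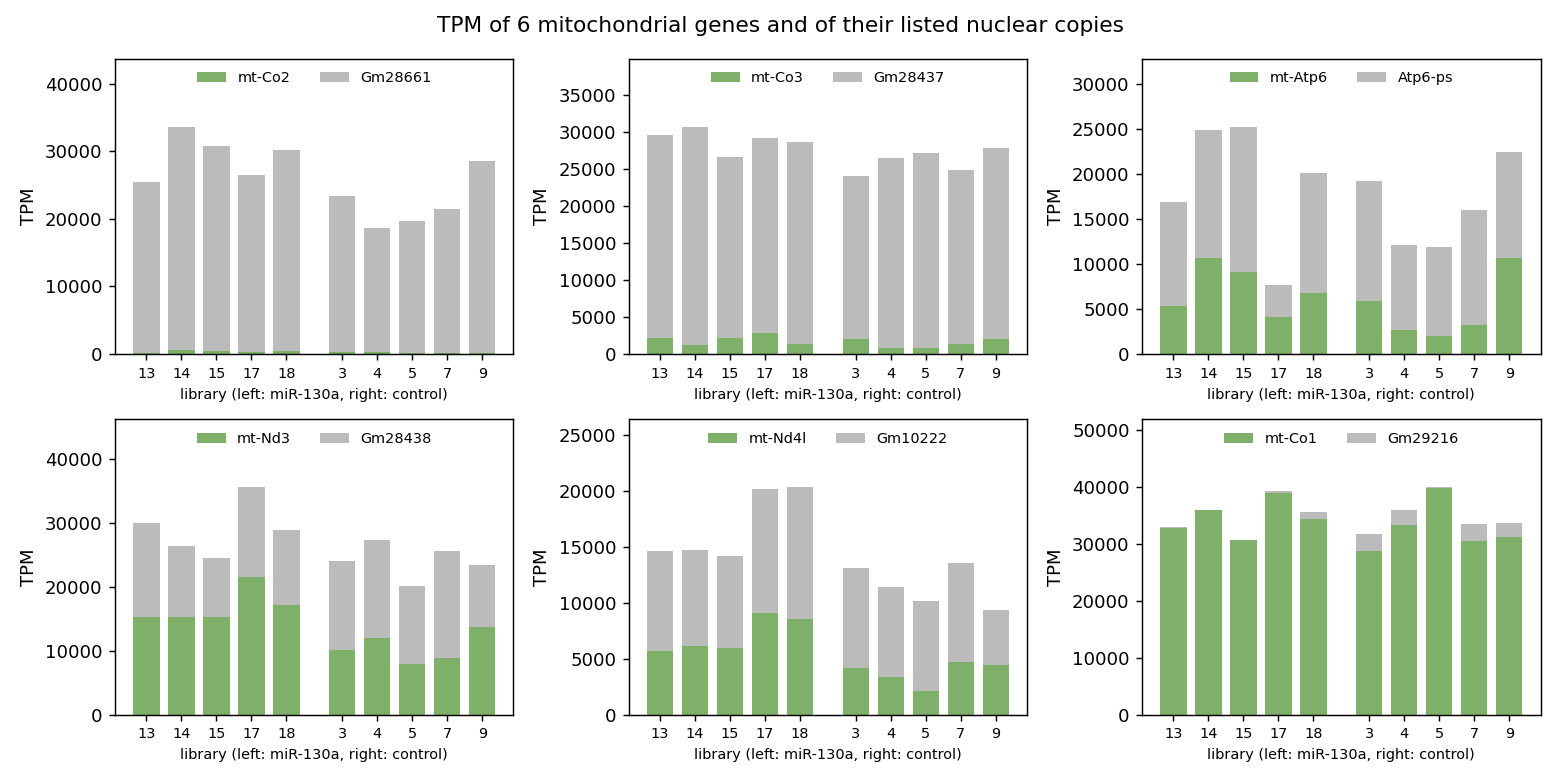
Each panel stacks the TPM of a mitochondrial gene and of its listed nuclear copy for the 5 miR-130a libraries on the left and the 5 controls on the right. Nearly all of the mt-Co2 pair is listed under Gm28661, and the mt-Nd3 pair is divided differently from library to library.

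Summed with its copy, mt-Co2 was at 25501, 33644, 30724, 26453 and 30261 TPM in the miR-130a libraries and 23431, 18616, 19691, 21407 and 28568 TPM in the controls, which is of the order of mt-Co1. Its fold change shrank and it no longer passed (log2 fold change 0.40 ± 0.15 SE, adjusted p = 0.095 in limma). The mt-Nd3 pair averaged 29069 ± 4244 TPM in miR-130a and 24137 ± 2654 TPM in control libraries and no longer passed either (SD, n = 5 each; log2 fold change 0.26 ± 0.14 SE, adjusted p = 0.243 in limma). The mt-Nd4l pair kept its call at a smaller fold change, with every miR-130a library above every control (log2 fold change 0.54 ± 0.16 SE, adjusted p = 0.0439 in limma). The mt-Co3 and mt-Atp6 pairs did not pass, at log2 fold changes of 0.15 and 0.14 (limma adjusted p = 0.399 and 0.812). The plain sum of mt-Co1 and its copies averaged 34856 ± 3230 TPM in miR-130a and 34900 ± 3174 TPM in control libraries. Its copy Gm29216 has 492 bases against 1545 of mt-Co1, so a plain sum of TPM gives that copy too much weight. Weighted by length, the sum averaged 34628 ± 3164 TPM in miR-130a and 33376 ± 3935 TPM in control libraries, with overlap. In all, 8 of 15 genes rose and 0 fell after summing, beside 2.18% of all genes called higher in that fit. The summing was chosen after the data had been seen.

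The genes were also divided by position on the chromosome. Over all tested genes 2.19% were called higher as deposited and 2.18% with copies summed. The 7 outside the copied stretch are mt-Rnr1, mt-Rnr2, mt-Nd1, mt-Nd2, mt-Nd5, mt-Nd6 and mt-Cytb, and 6 of these 7 rose. Their log2 fold changes lay between 0.28 and 0.56 with a median of 0.44. The 8 within or between its copies, mt-Co1, mt-Co2, mt-Atp8, mt-Atp6, mt-Co3, mt-Nd3, mt-Nd4l and mt-Nd4, had log2 fold changes from −0.02 to 1.28, and 4 of the 8 rose. After summing with copies the 8 lay between −0.02 and 0.54 with a median of 0.21, and 2 of the 8 rose, mt-Nd4 and mt-Nd4l. The division is by sequence and not by expression, and the difference between the parts was not tested.

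**Figure D4:**
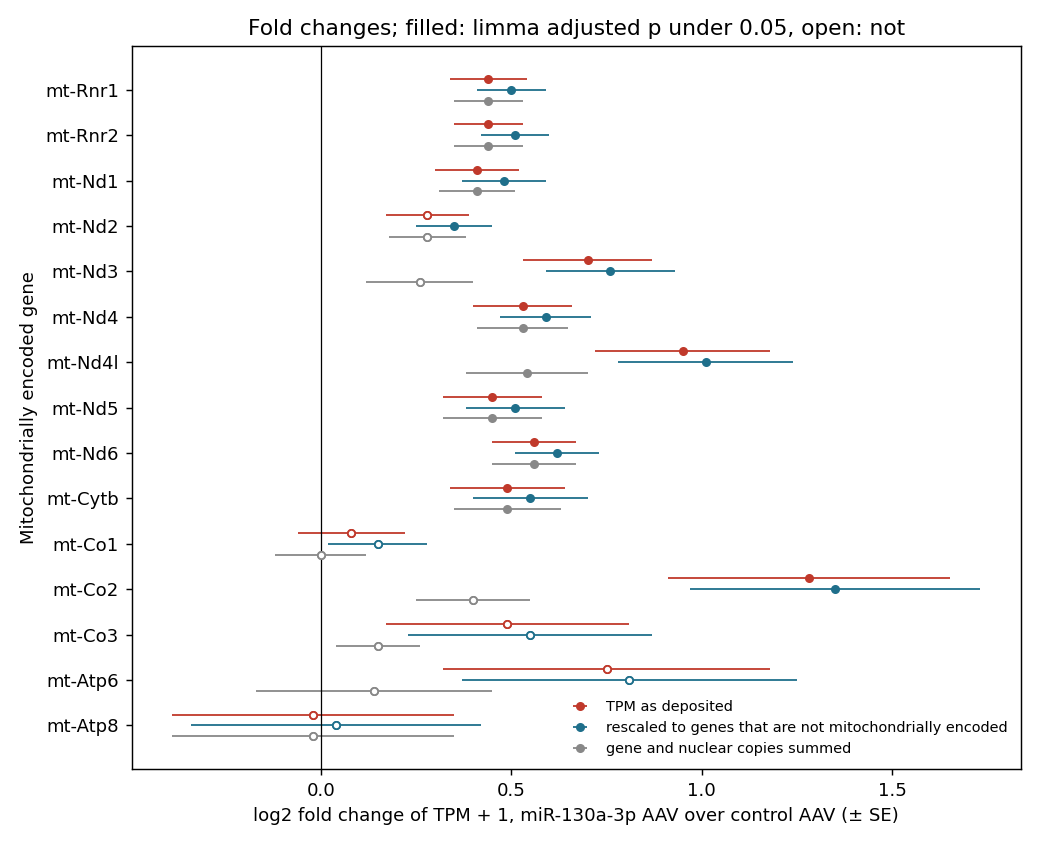
Points are limma log2 fold changes of TPM + 1 with standard errors, miR-130a over control, for TPM as deposited, rescaled to genes that are not mitochondrially encoded, and summed with nuclear copies. Filled points have an adjusted p under 0.05, and the values of mt-Co2, mt-Nd3, mt-Nd4l and mt-Atp6 move most on summing.

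The make-up of the mitochondrial mRNA pool was also followed apart from its total. As deposited, mt-Atp8 was the largest part in 8 of the 10 libraries, with 10.9 to 36.9% in miR-130a and 25.3 to 41.1% in control libraries of the TPM of the 13 protein-coding genes, followed by mt-Co1 with 17.1 to 26.8% in miR-130a and 19.2 to 31.8% in control libraries. In miR-130a library 17 and control library 5 the order was the opposite. As deposited, this pool leaves out TPM listed under nuclear copies, which hold most of the mt-Co2 and mt-Co3 pairs. With copies summed, mt-Atp8 held 7.02 to 24.65% in miR-130a and 15.7 to 26.3% in control libraries. Its model has only 204 bases and shares an mRNA with mt-Atp6, and why its TPM exceeded that of mt-Atp6 was not tested. As deposited, the share of each of the 13 overlapped between the groups. That of mt-Nd6 was 3.14 to 3.79% in miR-130a and 2.57 to 3.29% in control libraries. With copies summed, a basis chosen after the data had been seen, mt-Nd6 had 2.25% ± 0.13 in miR-130a and 1.80% ± 0.20 in control libraries (SD, n = 5 each). On that basis it was the only one of the 13 whose share did not overlap between the groups, which was not tested. Over all tested genes every miR-130a library exceeded every control in 1.85%, a figure for TPM and not for shares of this pool. The quotient of mt-Nd6 over its neighbour mt-Nd5 overlapped, at 1.22 to 1.39 in miR-130a and 0.987 to 1.39 in control libraries. Ribosomal over protein-coding RNA was 0.050 to 0.072 in miR-130a and 0.045 to 0.055 in control libraries with copies summed, highest in miR-130a libraries 13 and 17, the 2 libraries of that group with the lowest mt-Atp8. The quotient of mt-Atp8 over the mt-Atp6 pair was 2.07 to 2.997 in miR-130a and 2.32 to 3.21 in control libraries. The mt-Atp6 pair, like mt-Atp8, was lowest in miR-130a library 17, at 7683 TPM.

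The nuclear partners of the same enzymes rose in part. Over all tested genes 2.19% were called higher and 11.3% lower. Of 36 nuclear complex I subunits, 16 rose and 0 fell, with a median log2 fold change of 0.35. Ndufs5 averaged 501 ± 32.8 TPM in miR-130a and 341 ± 51.1 TPM in control libraries and Ndufa5 236 ± 16.9 TPM in miR-130a and 155 ± 29.4 TPM in control libraries (SD, n = 5 each; limma adjusted p = 0.0071 and 0.00954). In complex III 4 of 9 nuclear subunits rose, among them Uqcr11 at 798 ± 110.3 TPM in miR-130a and 516 ± 91.4 TPM in control libraries and Uqcrh at 655 ± 63.8 TPM in miR-130a and 452 ± 93.3 TPM in control libraries (limma adjusted p = 0.015 and 0.0203). Complex IV had 7 of 11 higher. Cox5a averaged 465 ± 58.1 TPM in miR-130a and 304 ± 31.5 TPM in control libraries and Cox7a2 407 ± 27.7 TPM in miR-130a and 263 ± 65.6 TPM in control libraries (limma adjusted p = 0.00492 and 0.0153). Among 15 nuclear ATP synthase subunits 8 rose, among them Atp5mc1, which encodes the rotating membrane ring, at 563 ± 103 TPM in miR-130a and 348 ± 27.7 TPM in control libraries and Atp5pb at 258 ± 18.1 TPM in miR-130a and 198 ± 13.3 TPM in control libraries (limma adjusted p = 0.00669 and 0.0118). None of the nuclear subunits of these 4 complexes fell. The next list, complex II, has only 4 genes, and at the shares over all genes a list of that size would mostly hold 0 calls. Complex II, which has no mitochondrial gene, had 0 of 4 subunits past the threshold in either direction and a median of 0.07, and 0 of 4 had an unadjusted limma p under 0.05, with Sdhb at 222 ± 31.9 TPM in miR-130a and 189.9 ± 10.99 TPM in control libraries and Sdhc at 110.0 ± 8.16 TPM in miR-130a and 120.5 ± 16.8 TPM in control libraries (limma adjusted p = 0.216 and 0.484).

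Few genes that make and maintain mitochondrial RNA and DNA passed the test. Of 8 transcription genes tested, 0 passed and the median log2 fold change was −0.03, where Polrmt, the mitochondrial RNA polymerase, was at 13.6 ± 1.94 TPM in miR-130a and 16.6 ± 4.06 TPM in control libraries and the terminator family member Mterf3 at 11.3 ± 1.26 TPM in miR-130a and 9.28 ± 0.767 TPM in control libraries. Of 14 genes of mitochondrial DNA maintenance, 0 passed, the lowest p-values being those of the topoisomerase Top3a and of Atad3a (limma adjusted p = 0.0747 and 0.122). Among 30 genes of mitochondrial RNA processing and stability, Trub2, a pseudouridine synthase, fell to 10.3 ± 1.57 TPM in miR-130a, against 15.8 ± 2.96 TPM in control libraries (limma adjusted p = 0.0189), and 29 did not pass, the nuclease Rexo2 being nearest (limma adjusted p = 0.0633). Of 20 genes that charge mitochondrial transfer RNAs, the arginine enzyme Rars2 rose, averaging 11.4 ± 2.08 TPM in miR-130a and 7.92 ± 1.297 TPM in control libraries (limma adjusted p = 0.0489, lost without control libraries 7 and 9), and 19, such as the leucine enzyme Lars2, did not pass. Of 13 translation factors, with Oxa1l and Mrrf lowest in p, 0 passed. The same held for 23 import, membrane and matrix proteins, with Phb1 and Hspd1 lowest, and for 12 regulators of mitochondrial biogenesis, with Nrf1 and Pprc1 lowest. These last 6 genes had limma adjusted p-values between 0.095 and 0.168. At an unadjusted limma p under 0.05, 8 of the 30 RNA processing genes were lower and 1 higher, 2 of the 20 transfer RNA charging genes were higher and 1 lower, and 2 genes each of DNA maintenance, translation factors and biogenesis regulators were lower. At the same threshold 1 transcription gene and 4 import, membrane and matrix genes were higher. Over all tested genes 22% were lower and 6.36% higher at that threshold, so the lower counts of these lists are near or below the common share. With median-ratio scaling 1 transcription gene (Mterf3), 1 RNA processing gene and 3 import, membrane and matrix genes (Hspd1 among them) passed as higher, beside 5.52% of all genes. Without control libraries 7 and 9, 5 RNA processing genes, 2 translation factors, 1 charging gene, 1 import gene and 1 biogenesis regulator were lower and 1 import gene was higher, and Oxa1l and Pprc1 were among the lower ones (limma adjusted p = 0.0343 and 0.0299). In that fit 2442 of all 15680 genes were called lower and 361 higher. Over the 12 lists together, 36 of 195 tested genes rose and 1 fell, beside 2.19% called higher and 11.3% called lower over all genes.

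**Figure D5:**
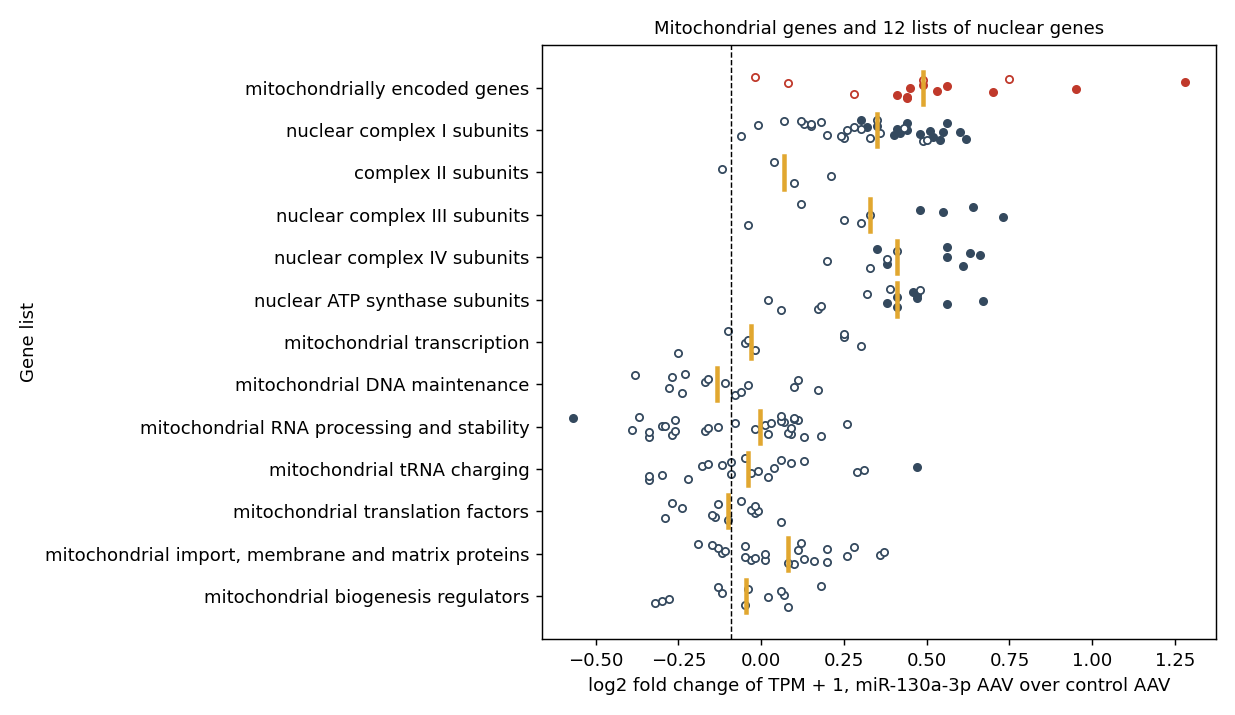
Points are limma log2 fold changes of TPM + 1, miR-130a over control, for the 15 mitochondrially encoded genes (top row) and 12 lists of nuclear genes, filled where the adjusted p is under 0.05. Bars mark list medians, from 0.49 for the mitochondrial genes and 0.33 to 0.41 for the nuclear subunits of complexes I, III, IV and V to −0.13 for mitochondrial DNA maintenance, and the dashed line marks the median of all tested genes, −0.09.

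Cell type markers moved with the groups too. Lower calls were common in this fit, at 11.3% of all tested genes, beside 2.19% called higher. Every miR-130a library lay below every control in 9.46% of tested genes and above every control in 1.85%. Those shares are for single genes and give no background for the marker sums. The 10 microglial markers summed to 635 to 931 TPM in miR-130a and 1706 to 3435 TPM in control libraries, without overlap, and 9 of the 10 fell, led by C1qc and Csf1r (limma adjusted p = 0.000609 and 0.000873). The 8 endothelial markers summed to 258 to 314 TPM in miR-130a and 345 to 421 TPM in control libraries with 6 lower, led by Pecam1 and Cdh5, and the lymphocyte markers to 2.36 to 10.04 TPM in miR-130a and 11.2 to 83.4 TPM in control libraries with 4 of 6 tested lower, Nkg7 and Cd8a first. Markers of inhibitory neurons summed to 1539 to 2020 TPM in miR-130a and 1120 to 1418 TPM in control libraries, and 3 of 8 rose, among them Sst and Npy (limma adjusted p = 0.00365 and 0.0249). Without control libraries 7 and 9 the call of Npy was lost (limma adjusted p = 0.0606) and 2 of 8 rose. The 10 markers of excitatory neurons overlapped, at 3544 to 4714 TPM in miR-130a and 3232 to 6158 TPM in control libraries, and 0 passed, Neurod6 (higher) and Neurod2 (lower) coming nearest with an unadjusted limma p under 0.05. With median-ratio scaling 2 excitatory markers were higher, Neurod6 among them (limma adjusted p = 0.0219), and without control libraries 7 and 9 2 were lower, Neurod2 among them (limma adjusted p = 0.0148). Of the astrocyte, oligodendrocyte and precursor markers 0 of 22 passed, Sox9, Slc1a3, Cnp, Mag, C1ql1 and Gpr17 having the lowest p-values, and at an unadjusted limma p under 0.05 1 astrocyte marker was higher while 3 astrocyte, 1 oligodendrocyte and 3 precursor markers were lower. Without control libraries 7 and 9, 2 precursor markers passed as lower, Gpr17 among them (limma adjusted p = 0.0402). Striatal markers summed to 96.7 to 126 TPM in miR-130a and 93.8 to 141 TPM in control libraries, far below the cortical excitatory ones; Adora2a was lower (limma adjusted p = 0.0413, lost on rescaling, with median-ratio scaling and without control libraries 7 and 9) and Drd1 did not pass. Every marker in these lists was detected. With median-ratio scaling the lower endothelial markers numbered 4 and the lower lymphocyte markers 2, and without control libraries 7 and 9 the lower lymphocyte markers also numbered 2. The microglial sum was highest in control libraries 7 and 9; without them 7 mitochondrial genes rose, beside 2.30% of all genes. The part of these cell types in the mitochondrial values was not tested.

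The direction of calls over all genes moved with scaling, while the calls of mitochondrial genes stayed in 1 direction. As deposited, 16.3% of 2110 calls were higher. On rescaling without mitochondrial genes it was 26.6%, on rescaling to nuclear protein-coding genes 29.7%, with median-ratio scaling 41.96% and with quantile normalization 50.6%, where the median of all genes was 0.05. Mitochondrial genes called higher numbered 11 in each of the rescalings, beside 3.11% of all genes on rescaling without mitochondrial genes, and 10 with median-ratio scaling, beside 5.52% of all genes. Under these scalings 0 were lower. Rescaling without mitochondrial genes raises their fold changes by construction, because the remaining genes sum to less where the mitochondrial share is higher. The counts on rescaling are therefore no separate support. The median log2 fold change of the 15 was 0.60 with median-ratio scaling, where that of all genes was 0.01, and 0.18 with quantile normalization. Under quantile normalization only 2 of the 15 were called higher, beside 1071 of all 15680 genes. That method sets the top ranks alike in every library, which by construction lowers a rise shared by the genes there.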

How the data were processed

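Poly(A) RNA of 10 libraries of mouse medial prefrontal cortex was analysed, 5 from mice given miR-130a-3p AAV and 5 from mice given control AAV, with RNA of an integrity number of at least 6.5 per the labels' protocols and a stranded ligation kit. The authors deposited TPM per gene, scaled so that every library has the same total, and their own group means, which were not used. Per the submitters' processing notes the tools were fastp, HISAT2, RSEM and DESeq2 and the build GRCm39, with no versions or roles, so how reads that match several places were divided is not given in the sources used here. TPM keeps no depth, so no counting interval was computed and count models were not used. Columns were matched to libraries by sample title. The design text speaks of mice without their number, so the p-values cover the variation among the libraries and no more.

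The scale for tests was log2(TPM + 1), which leaves fold changes of weak genes understated. Genes with a mean of at least 1 TPM, 15680 of 78317, were fitted with limma 3.58.1 in R 4.3.3, with a variance trend, 2-sided tests and Benjamini-Hochberg adjustment over all of them. Every adjusted p is from that fit or, where said, from an alternative. Copies were found with BLAST+ 2.17.0, and sums and figures made with Python 3.11.15, pandas 2.3.3, numpy 2.4.6 and matplotlib 3.10.9. All 37 mitochondrial genes matched the GENCODE reference by identifier. Its build, GRCm38, differs from that of the files, so its coordinates describe the reference only. The fit was also run on simulated data with independent genes and planted changes in both directions, which checks the code only and supports no result here. The 21 gene lists and the members were chosen with earlier results of these data known. In each list the 2 genes of lowest p are named, and the 5 nuclear copies of highest mean TPM. Gm29216, Gm28439, list totals and the share without mt-Atp8 were added after their values were seen.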

Additional observations from a re-analysis of the deposited data

Results flagged for a closer look

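Of 172 sets of 5 libraries examined with Dixon's test, 7 held a value far from the rest, near the 1 in 20 that chance gives. In the controls, mt-Nd2 was at 7697 TPM in library 5, where the next highest control had 6756 TPM. Among the nuclear copies, Gm29216, which resembles part of mt-Co1, was at 1130 TPM in miR-130a library 18 against 294 TPM in the next of its group, and at 58.9 TPM in control library 5 against at least 2460 TPM in the other controls. Gm10222, the copy of mt-Nd4l, was at 4968 TPM in control library 9 and at 8006 TPM or more in the other controls. The nuclear ATP synthase gene Atp5mc1 was at 299.6 TPM in control library 5, next to 356 TPM. Atad3a stood at 27.5 TPM in control library 3, above 24.3 TPM in the next. Cd8a was at 1.17 TPM in miR-130a library 15, above 0.25 TPM in the next.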

How the results depend on the processing

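Pseudocounts of 0.1 and 0.5 TPM and a minimum mean of 5 TPM left the same 10 mitochondrial genes called higher, and 0 were called lower under any alternative run. With no filter on low values 0 were called, the lowest adjusted p being 0.102, and 1302 of all genes passed. Quantile normalization left 2 and robust moderation or no variance trend 9, mt-Co2 being the call lost. With single libraries left out, the count lay between 4 and 10, and that of all genes between 1254 and 3421. The cause of these moves was not tested. The difference in mitochondrial share, 3.52 percentage points, lay between 3.10 and 4.33 under all alternatives, and that of ribosomal RNA, 0.39, between 0.36 and 0.41. Nuclear mitochondrial genes called higher numbered 48 on rescaling and 43 with median-ratio scaling, against 36. Called genes kept their sign under every alternative run for them. Among genes that did not pass, mt-Nd2 was at −0.16 on the log2 scale with quantile normalization and mt-Co1 at −0.0 summed with copies without weight for length. The fold change of mt-Atp8 was 0.04 and 0.05 under the rescalings, 0.09 both with median-ratio scaling and without control libraries 7 and 9, and −0.18 to 0.34 with single libraries left out, highest without miR-130a library 17. Drd1 was at −0.03 without control libraries 7 and 9 and Atp6-ps at 0.01 with median-ratio scaling. No paired analysis was possible because the groups share no library numbers. The depth behind the values is unknown.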
